A study of Mus musculus with 6 samples.

Results

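Fibroblast growth factor (FGF) ligands and receptors were followed in mouse skin fibroblasts (MSFs). The rows named Fgf1, Fgf2, Fgf7, Fgf10, Fgf18, Fgf21, Fgfr1, Fgfr2, Fgfr3 and Fgfrl1 were taken by name. They are 10 of the 22162 genes in the deposited table, 6 ligands and 4 receptors. Poly(A) RNA was sequenced from 3 libraries of MSFs given tamoxifen (TAM, 10 µM), labelled senescent, and from 3 given the ethanol vehicle (EtOH), labelled non-senescent. Treatment lasted 48 h in the study's methods, which do not say how long after it the RNA was collected. Both groups were grown at 3% oxygen with serum. Both groups carry the same alleles on the FVB/N strain: a Cre-recombinase that TAM switches on, driven by the pro-alpha 2(I) collagen promoter, and a ROSA26 allele that expresses p27Kip1 and GFP once its stop cassette is removed. The vehicle cells therefore lack TAM and not the alleles. The methods describe the MSFs as 1 cell line from the dorsal skin of 1 female FASST mouse, whose age they do not give. Nothing in the labels says that the 3 libraries of a group came from separate cultures, so p-values measure the spread between these libraries, which may be technical.

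FGFs are secreted proteins that bind tyrosine kinase receptors on the cell surface, mostly together with heparan sulfate chains, and signal largely through the RAS-ERK cascade. Fgf7 and Fgf10 are made by fibroblasts and act mainly on the epithelial IIIb form of Fgfr2, Fgf2 acts on several receptors, and Fgf21 is a hormone-like FGF that needs the co-receptor Klb. In skin, FGF7 from dermal fibroblasts is known as a growth factor for keratinocytes and in wound repair. Reads counted per gene cannot separate the IIIb and IIIc receptor forms.

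Fgf21 was lower and Fgf7 higher in every TAM library than in any EtOH library. Fgf21 had a mean of 237 ± 121 normalized counts (SD, n = 3) in the EtOH libraries and 31.7 ± 3.55 in the TAM libraries, 7.49-fold lower. Fgf7 had a mean of 1677 ± 439 in EtOH and 4755 ± 1231 in TAM libraries, 2.83-fold higher. The receptors Fgfr1 and Fgfrl1 were 1.59-fold and 1.52-fold higher, each without overlap between the groups. Differences were tested on log2(normalized counts + 1) with limma over the 11877 genes that reached 16.2 normalized counts, which stand for 1 c.p.m., in 3 or more libraries. Of the 10 genes, 9 passed this filter and Fgf1 did not. At a Benjamini-Hochberg adjusted p under 0.05, limma called 0 of the 9, where it called 0.168% of all genes tested as higher, 0.0758% as lower and 0.244% in all, and 4 of the 9 had an unadjusted p under 0.05. These were 3 higher and 1 lower, where 6.67% and 6.7% of all genes tested reached that level in these directions. The fit with the replicate number as a block called Fgf21 as lower and no other of the 9, where it called 0.615% of all genes as lower and 1.62% in either direction. At an unadjusted p under 0.05 the block gave 4 higher and 1 lower, where 8.64% and 8.32% of all genes tested reached it.

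**Figure D1:**
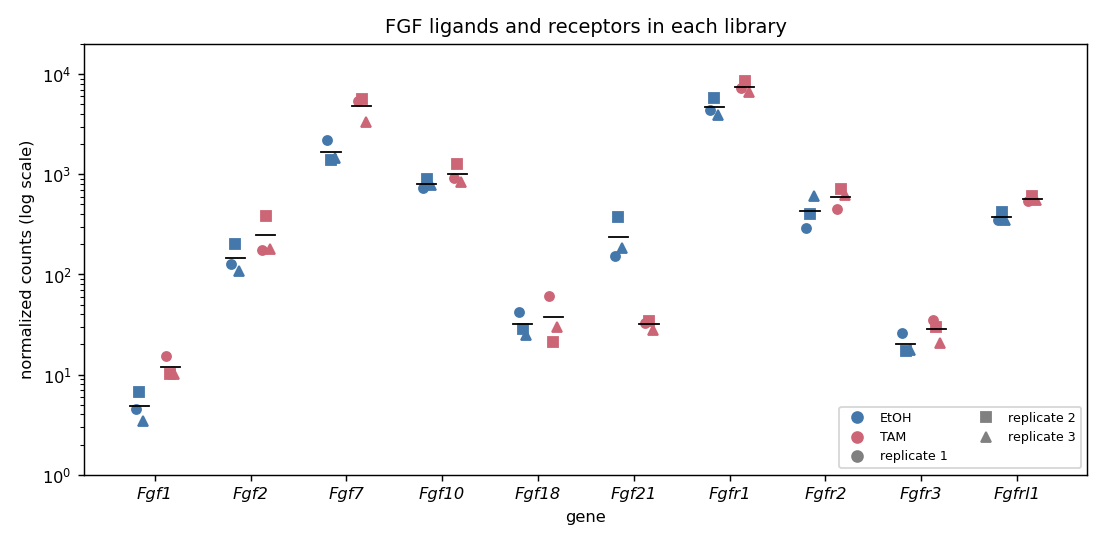
Normalized counts (log scale) of the 10 genes in each library, with EtOH in blue, TAM in red, the replicate number as the symbol and the group mean as a black line. The TAM values of Fgf21 lie between 27.7 and 34.3, below all EtOH values, and those of Fgf7 between 3341 and 5587, above all EtOH values.

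The sequences just upstream of Fgf21 and Fgf7 are shown because these genes had the largest fall and the largest rise among the 9. They are the 250 bases before each gene's start, written 5′ to 3′ on the gene's strand, from RefSeq's windows on GRCm38.p6. Each window matched mm9 exactly once, at chr7:52870861-52871110 (minus strand) for Fgf21 and chr2:125860144-125860393 (plus strand) for Fgf7. Capitals mark motifs: in Fgf21 the core of the CCAAT-ATF response element, which the stress factors ATF4 and DDIT3 bind, and a TATA box, and in Fgf7 a CCAAT box and an estrogen response element half-site (AGGTCA).
Fgf21: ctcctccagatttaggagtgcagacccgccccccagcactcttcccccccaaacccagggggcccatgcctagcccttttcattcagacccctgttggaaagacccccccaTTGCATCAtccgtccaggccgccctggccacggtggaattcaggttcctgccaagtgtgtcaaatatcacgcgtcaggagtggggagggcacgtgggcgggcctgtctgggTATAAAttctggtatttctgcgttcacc
Fgf7: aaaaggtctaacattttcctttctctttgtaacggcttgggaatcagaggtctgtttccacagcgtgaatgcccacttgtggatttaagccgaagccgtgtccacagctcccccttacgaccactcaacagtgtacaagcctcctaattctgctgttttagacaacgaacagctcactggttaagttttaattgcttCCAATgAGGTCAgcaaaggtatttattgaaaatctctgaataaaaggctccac
The response element core, spelled TGATGNAA, is read on the other strand of Fgf21 as TTGCATCA and begins 139 bases before the start. Both strands of the 300-base windows (250 before to 50 after a start) of 8 of the 10 genes were searched, 9 windows in all since Fgfr3 has 2 starts. TGATGNAA was in 1 of the 9 windows, that of Fgf21, and in 3.97% of 32851 windows of mouse genes. CCAAT was in 3 of the 9 (Fgf7, Fgfr3 and Fgfrl1) and in 37.4% of all, TATAAA in 1 (Fgf21) and in 13.6%, and AGGTCA in 1 (Fgf7) and in 16.3%. The cyclic AMP response element TGACGTCA was in 0 of the 9 and in 1.79% of all, and the AP-1 element TGANTCA in 0 and in 7.81%. The TGANTCA and TGATGNAA spellings can share bases, and the motifs were chosen with results known. A match describes letters and not bound sites.

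Fgf21 (ENSMUSG00000030827, mm9 chromosome 7, 52869277 to 52870860, 3 exons) encodes a hormone-like FGF that cells are known to make under nutrient and endoplasmic reticulum stress. It had 153, 376 and 183 normalized counts in EtOH replicates 1, 2 and 3 and 33.1, 34.3 and 27.7 in TAM replicates 1, 2 and 3. The TAM libraries lay close together at the low end, and EtOH replicate 2 stood highest. For Fgf21 the difference of mean log2 values was −2.76 (standard error 0.37, 95% interval −3.64 to −1.88), with an adjusted p of 0.0524 in limma. With the replicate block the adjusted p was 0.0345 and the standard error 0.32. Within the 3 pairs of the same replicate number the log2 difference was −2.18, −3.42 and −2.68. Of the 11877 genes tested, 33 had a lower log2 fold change. Without both replicate 2 libraries, a setting added after seeing the data, it was −2.43 (adjusted p 0.0512 in limma and 0.0111 with the block).

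Fgf7 (ENSMUSG00000027208, mm9 chromosome 2, 125860394 to 125916921, 4 exon blocks) encodes keratinocyte growth factor. It had 2183, 1397 and 1452 normalized counts in the EtOH libraries, in the order of their replicate numbers, and 5337, 5587 and 3341 in the TAM libraries. The lowest TAM value exceeded the highest EtOH value, and replicate 3 had the smallest difference. On the log2 scale the fold change was 1.50 (standard error 0.28, 95% interval 0.85 to 2.15), with an adjusted p of 0.103 in limma. With the replicate block it was 0.05002, not under the threshold, so Fgf7 was not called in either fit. The log2 difference within pairs was 1.29, 2.00 and 1.20. With library weights the log2 fold change was 1.10 (adjusted p 0.0433), and without both replicate 2 libraries it was 1.25 (adjusted p 0.133 in limma and 0.0123 with the block). The table lists this gene with a locus of 1448 bases where the annotation has 56528, and which bases were counted is not given in the sources used here.

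Fgf10 (ENSMUSG00000021732, chromosome 13) encodes a close relative of Fgf7 with the same main receptor. Its values overlapped between the groups, with 734, 895 and 788 in EtOH and 914, 1255 and 847 in TAM libraries. The log2 fold change was 0.30 (standard error 0.20, 95% interval −0.17 to 0.78, adjusted p 0.579 in limma). Within each library the ratio of Fgf7 to Fgf10 was 2.98, 1.56 and 1.84 in EtOH and 5.84, 4.45 and 3.95 in TAM libraries. These 2 related ligands thus stood in a higher ratio in each TAM library than in any EtOH library, by 1.19 on the log2 scale, with a two-sided exact permutation p of 0.1, the smallest that 3 against 3 libraries can give. The ratio of Fgf7 to Fgf21 was 14.2, 3.72 and 7.95 in EtOH and 161, 163 and 121 in TAM libraries (log2 difference 4.29, exact permutation p 0.1). Since Fgf7 was higher and Fgf21 lower in every TAM library, this ratio had to separate the groups. Its p was thus fixed in advance and adds no evidence. Both ratios were chosen after the values were seen, and 5 ratios were computed in all.

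Fgf2 (ENSMUSG00000037225, chromosome 3), a broadly acting FGF that lacks a classical signal peptide, had 128, 199 and 108 normalized counts in EtOH and 176, 382 and 182 in TAM libraries. Replicate 2 was the highest in both groups, and EtOH replicate 2 lay above TAM replicates 1 and 3. The log2 fold change was 0.71 (standard error 0.38, 95% interval −0.18 to 1.60, adjusted p 0.478 in limma), with TAM higher in 3 of 3 pairs. In the annotation 13.4% of the exon bases of Fgf2 overlap Nudt6 on the other strand, and the strand setting of the counting is not given in the sources used here. Reads of the 2 genes cannot be told apart there. The ratio of Fgf7 to Fgf2 overlapped between the groups (exact permutation p 0.2).

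Fgf18 (ENSMUSG00000057967, chromosome 11), known for its part in bone and cartilage and in the hair cycle, was near the filter, with 42.4, 28.6 and 24.8 in EtOH and 61.7, 20.9 and 30.2 in TAM libraries. TAM replicate 1 was the highest and TAM replicate 2 the lowest of all 6. The log2 fold change was 0.12 (95% interval −1.01 to 1.26, adjusted p 0.941), and its sign turned to −0.04 under quantile normalization and to −0.30 without TAM replicate 1. Fgf1 (ENSMUSG00000036585, chromosome 18), a ligand of all FGF receptors, had 4.56, 6.67 and 3.46 in EtOH and 15.3, 10.0 and 10.2 in TAM libraries. The Fgf1 groups did not overlap, but every value was below the 16.2 of the filter. Fitted with all genes above 0, the Fgf1 difference was 1.14 on the log2 scale (standard error 0.45, adjusted p of 0.340).

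**Figure D2:**
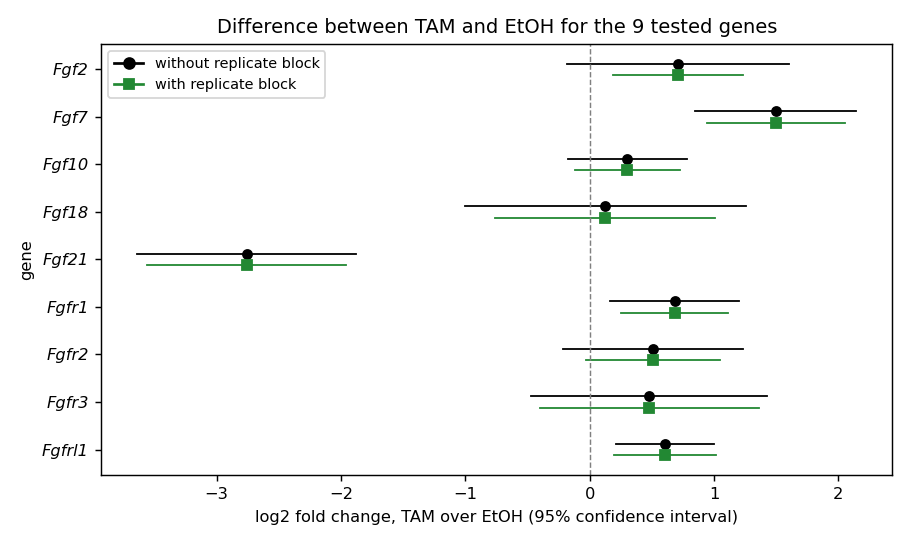
Log2 fold change of TAM over EtOH for the 9 tested genes, as points with 95% confidence intervals, without (black) and with (green) the replicate block. The interval of Fgf21 lies wholly below 0, those of Fgf7, Fgfr1 and Fgfrl1 lie wholly above 0 in both fits, and that of Fgf2 lies above 0 with the block.

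Fgfr1 (ENSMUSG00000031565, chromosome 8), the main FGF receptor of mesenchymal cells, had 4388, 5822 and 3875 normalized counts in EtOH and 7313, 8549 and 6558 in TAM libraries. Every TAM library exceeded every EtOH library, and replicate 2 was the highest in each group. For Fgfr1 the log2 fold change was 0.68 (standard error 0.22, 95% interval 0.17 to 1.20, adjusted p 0.261 in limma). The log2 difference was alike in the 3 pairs, at 0.74, 0.55 and 0.76. A second annotated gene of the same name overlaps 9.44% of the exon bases of Fgfr1, so reads of these bases could be split or dropped by the counting.

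Fgfrl1 (ENSMUSG00000008090, chromosome 5), which binds FGFs and heparin but has no kinase domain, is regarded as a decoy receptor. Its values were 352, 417 and 352 in EtOH and 540, 614 and 550 in TAM libraries, with no overlap. The difference of mean log2 values was 0.61 (standard error 0.17, 95% interval 0.21 to 1.00, adjusted p 0.210 in limma), and the pairs gave 0.62, 0.56 and 0.65. The ratio of Fgfrl1 to Fgfr1 within a library overlapped between the groups (log2 difference −0.08, exact permutation p 0.7).

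Fgfr2 (ENSMUSG00000030849, chromosome 7), whose IIIb form receives Fgf7 and Fgf10 on epithelia, had 291, 403 and 602 in EtOH and 455, 712 and 628 in TAM libraries. The groups overlapped, since EtOH replicate 3 exceeded TAM replicate 1, and the log2 fold change was 0.51 (standard error 0.31, 95% interval −0.22 to 1.23, adjusted p 0.539). Fgfr3 (ENSMUSG00000054252, chromosome 5), known as a brake on bone growth, was low throughout, with 25.8, 17.1 and 17.6 in EtOH and 35.2, 30.2 and 20.7 in TAM libraries. The Fgfr3 log2 fold change was 0.48 (95% interval −0.47 to 1.43, adjusted p 0.655).

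Read together, 8 of the 9 tested genes had a log2 fold change above 0, where 46.2% of all genes tested did, and their median was 0.51 against −0.03 for all genes tested. The groups did not overlap for 3 genes that were higher (Fgf7, Fgfr1 and Fgfrl1) and 1 that was lower (Fgf21), where 9.19% and 11.4% of all genes tested did not overlap in these directions, 20.6% in all. Scaling all libraries to the same sum moved the median of all genes up by 0.11 on the log2 scale, a size to set beside the differences of Fgf10 and Fgf18. With that scaling 58.2% of all genes tested had a log2 fold change above 0, and no member changed its sign.

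Levels of different genes were compared per kb of merged exons in the mm9 annotation. Among the 6 ligands the order in EtOH libraries was Fgf7, Fgf21, Fgf10, Fgf2, Fgf18 and Fgf1, with overlap between Fgf21 and Fgf10 and no overlap between other neighbours. In TAM libraries Fgf21 stood behind Fgf10 and Fgf2, in the order Fgf7, Fgf10, Fgf2, Fgf21, Fgf18 and Fgf1, with overlap of Fgf10 with Fgf2 and of Fgf21 with Fgf18. As a share of the summed level per kb of the 6 ligands, Fgf7 made up 60.9%, 36.9% and 49.9% in EtOH and 80.9%, 76.1% and 75.0% in TAM libraries. Fgf21 made up 14.9%, 34.7% and 21.9% in EtOH and 1.75%, 1.63% and 2.17% in TAM libraries. The share of Fgf10 was 16.7 ± 2.34% (SD, n = 3) in EtOH and 11.8 ± 1.84% in TAM libraries, while its levels themselves overlapped. Shares of one sum move together, and those of Fgf7 rest on its annotated length.

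**Figure D3:**
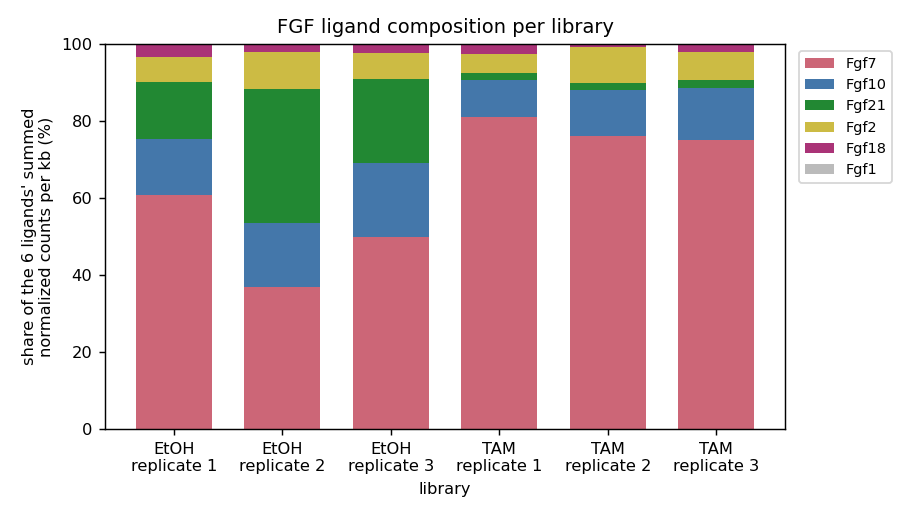
Stacked bars of each ligand's share (%) of the summed normalized counts per kb of the 6 ligands, with 1 bar for each library. Fgf7 (bottom) takes 36.9% to 60.9% of the EtOH bars and 75.0% to 80.9% of the TAM bars, and Fgf21 shrinks from 14.9% or more to 2.17% or less.

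The proportions of the 4 receptors overlapped between the groups. Per kb, Fgfr1 made up 74.2 ± 4.24% (SD, n = 3) of their sum in EtOH and 75.8 ± 1.89% in TAM libraries. Fgfrl1 made up 18.1 ± 1.18% and 17.6 ± 1.08%, Fgfr2 7.30 ± 3.34% and 6.28 ± 1.19%, and Fgfr3 0.386 ± 0.128% and 0.341 ± 0.0841%. The order Fgfr1, Fgfrl1, Fgfr2 and Fgfr3 held in both groups without overlap, except that Fgfrl1 and Fgfr2 overlapped in EtOH libraries when the longest transcript was used as the length.

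The genes whose centred log2 profile over the 6 libraries was most like that of Fgf7 were Sulf1, Nipal4 and Nek6, with a mean absolute difference of 0.12, 0.15 and 0.16 on the log2 scale. Those most like Fgf21 were Sh2d6 (0.28), Aldh1l2 (0.31), the mitochondrial 10-formyltetrahydrofolate dehydrogenase, and Gramd1b (0.34). Aldh1l2 had 5752, 10382 and 8798 normalized counts in EtOH and 1255, 2120 and 914 in TAM libraries.

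Of the other 12 secreted FGFs in the table (Fgf3 to Fgf6, Fgf8, Fgf9, Fgf15 to Fgf17, Fgf20, Fgf22 and Fgf23), 0 passed the filter. Their highest value was 30.0, for Fgf5 in EtOH replicate 1, and 4 of the 12 were listed at 0 in all libraries. Of the 4 intracellular FGF-homologous factors, which do not act on FGF receptors, Fgf11 and Fgf14 were tested and neither was called.

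Among 10 further receptors, co-receptors and binding partners, 6 were tested and 0 were called in either limma fit. An unadjusted p under 0.05 was reached by 1 higher gene without the block and by 2 with it. Of all genes tested, 6.67% were higher at that level without the block and 8.64% with it. All 6 log2 fold changes were above 0, with a median of 0.98, where 46.2% of all genes tested were above 0. The groups overlapped for Fgfbp3, Flrt1, Flrt2, Flrt3 and Ncam1. Cdh2 (N-cadherin, known to bind FGF receptors) had 504, 528 and 476 in EtOH and 897, 1276 and 929 in TAM libraries, without overlap. The Cdh2 log2 fold change was 1.02 (adjusted p 0.103 in limma and 0.0710 with the block). The klotho co-receptors were close to 0: Klb, needed for the response to FGF21, reached at most 3.59 normalized counts and Kl 1.51, and Fgfr4 reached at most 6.84.

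Heparan sulfate holds FGFs at the cell surface. Of 13 core proteins that carry it, 11 were tested, 0 were called without the block and Gpc1 was called higher with it. Gpc1 (glypican-1) had 1933, 1790 and 1025 in EtOH and 10979, 5693 and 5025 in TAM libraries, and its log2 fold change was 2.16 (adjusted p 0.0915 in limma and 0.0274 with the block). The median log2 fold change of the 11 was −0.10. Hspg2 (perlecan), named after its values were seen, had 53813, 70316 and 54973 in EtOH and 26441, 29048 and 31579 in TAM libraries, and was not called (log2 fold change −1.03, adjusted p 0.183).

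Of 20 enzymes that build or edit heparan sulfate, 16 were tested, 0 were called without the block and Sulf1 and Hs6st1 were called higher with it. Sulf1, an extracellular sulfatase that removes 6-O-sulfates, had 2346, 1460 and 1475 in EtOH and 5154, 4487 and 3800 in TAM libraries (log2 fold change 1.37, adjusted p 0.0915 in limma and 0.0416 with the block). Hs6st1, a sulfotransferase that adds 6-O-sulfates, had 1046, 509 and 462 in EtOH and 2353, 1122 and 1072 in TAM libraries (log2 fold change 1.17, adjusted p 0.293 in limma and 0.0420 with the block). The called enzymes thus have opposite activities on the same sulfate group. The median of the 16 was 0.18, and an unadjusted p under 0.05 was reached by 7 higher and 1 lower. These counts include Hs3st3b1, which passed the filter only through its TAM values and so had to differ, and nothing is read from them.

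**Figure D4:**
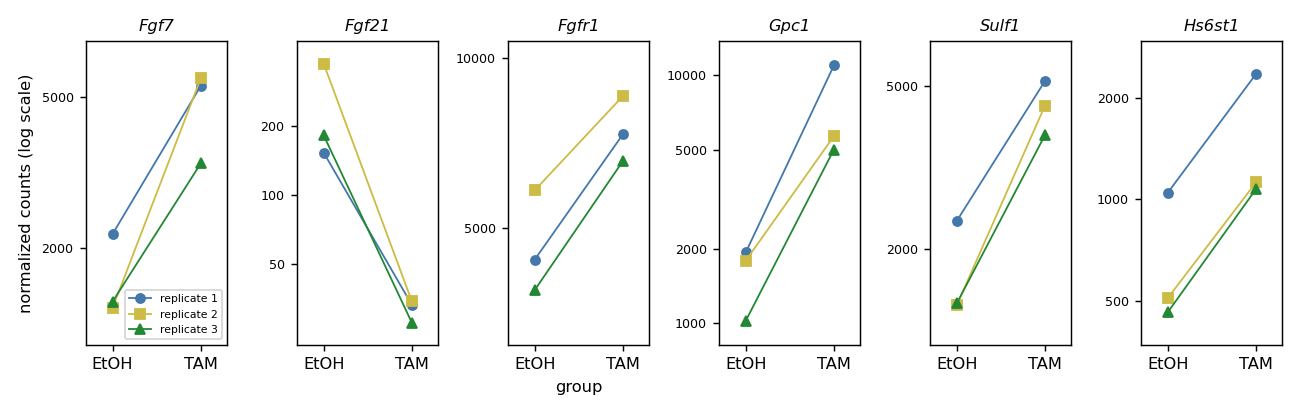
Normalized counts (log scale, a separate range for each gene) of Fgf7, Fgf21, Fgfr1, Gpc1, Sulf1 and Hs6st1, with a line from the EtOH to the TAM library of the same replicate number. All 3 lines of Fgf21 point down and all 3 lines of the other 5 genes point up.

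Downstream of the receptors, 23 adaptors and signal transducers were tested and 0 were called in either limma fit, with 1 at an unadjusted p under 0.05 in each fit and a median log2 fold change of 0.02. The 2 members with the largest differences without overlap were Mapk3 (ERK1; −0.86, adjusted p 0.268) and Ptpn11 (the phosphatase SHP2; 0.60, adjusted p 0.378). Of 10 feedback inhibitors of FGF-ERK signalling, 0 were called in either limma fit and the median was 0.25. An unadjusted p under 0.05 was reached by 1 lower gene without the block, and by 2 higher and 2 lower genes with it. Spry2, an inhibitor that ERK signalling induces, had 3065, 1820 and 2072 in EtOH and 1150, 1249 and 1509 in TAM libraries (log2 fold change −0.80, adjusted p 0.233).

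Of 11 genes known as ERK-responsive, mostly transcription factors, 0 were called in either limma fit and the median was 0.09. An unadjusted p under 0.05 was reached by 1 higher gene without the block and by 3 with it. Ccnd1 (cyclin D1) had 686, 955 and 321 in EtOH and 1464, 5964 and 1476 in TAM libraries (log2 fold change 1.98, adjusted p 0.256 in limma and 0.0648 with the block). The summed level of the list ranged from 2645 to 12499 in EtOH and from 3776 to 13065 in TAM libraries, with replicate 2 the highest in both. Over these 8 lists of the pathway, 79 of 105 genes were tested, 0 were called without the block, and 3 were called higher and 0 lower with it, where the block called 1.0% of all genes tested as higher and 0.615% as lower.

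**Figure D5:**
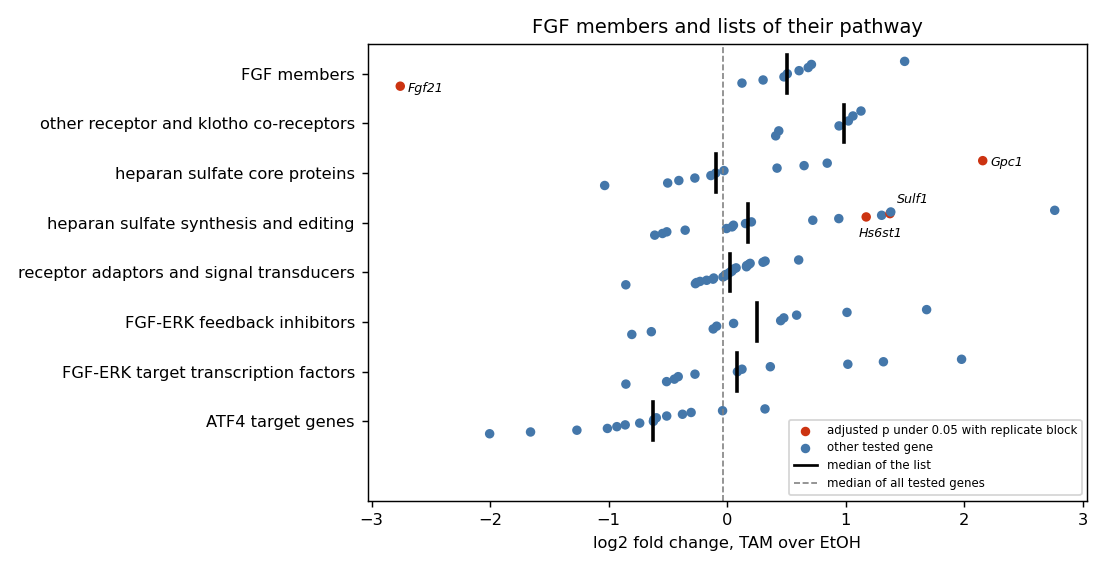
Log2 fold change of TAM over EtOH for each tested gene of the FGF members and of 7 lists, with the list's median as a black bar and the median of all genes tested (−0.03) as a dashed line. Red points (Fgf21, Gpc1, Sulf1 and Hs6st1) were called in the fit with the block, and most ATF4 target genes lie left of the dashed line.

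ATF4 is the transcription factor of the integrated stress response, and Fgf21 is known as one of its targets. A list of 16 genes of this response, Atf4 included and Fgf21 not, was compiled with earlier results of these data known. Of these, 15 were tested and 0 were called in either limma fit. An unadjusted p under 0.05 was reached by 3 lower genes without the block and by 7 with it. Of all genes tested, 6.7% without the block and 8.32% with it were lower at that level. Of the 15, 14 had a log2 fold change below 0, where 46.2% of all genes tested had one above 0. The median of the 15 was −0.62, against −0.03 for all genes tested. The groups did not overlap for 4 of the 15, all lower, where 11.4% of all genes tested were lower without overlap. In the replicate 2 pair, where Fgf21 had its largest difference, the list was split. There Chac1 (1.54), Phgdh (1.13) and Asns (0.99) were among the genes higher in TAM, and Ddit3 (−3.54) and Atf4 (−1.74) among those lower. Trib3, a pseudokinase induced by stress, had 2726, 2319 and 2854 in EtOH and 1064, 777 and 337 in TAM libraries (log2 fold change −2.00, adjusted p 0.123 in limma and 0.0827 with the block). Ddit3 (CHOP) had 2471, 23783 and 3957 in EtOH and 1587, 2040 and 2280 in TAM libraries (log2 fold change −1.66, adjusted p 0.411). EtOH replicate 2, the library with the most Fgf21, was the highest of the EtOH libraries for 7 of the 15 genes, Ddit3 and Atf4 among them, and the lowest for the other 8, Trib3 among them. The summed level of the list was 47253 to 75436 in EtOH and 24042 to 34395 in TAM libraries. Most of it in EtOH libraries came from Atf4, Atf5 and Ddit3. The part of ATF4 in the difference of Fgf21 was not tested.

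The libraries summed to between 14952367 and 17314953 normalized counts. The replicate 2 libraries stood apart, with limma weights of 0.292 (EtOH) and 0.288 (TAM) where the others had 0.931 or more. Cdkn1b, the mouse gene of p27Kip1, had 1427 to 3074 normalized counts in EtOH and 1520 to 1699 in TAM libraries (log2 fold change −0.32, adjusted p 0.677). Whether reads of the ROSA26 allele fall on this row is not given in the sources used here, so directions hold for the libraries as labelled. All 12 fibroblast markers were tested and 0 were called in either limma fit. An unadjusted p under 0.05 was reached by 2 higher and 3 lower ones without the block, and by 2 and 4 with it. Of all genes tested, 6.67% were higher and 6.7% lower at that level without the block, and 8.64% and 8.32% with it. The summed level of the 12 markers was 1584480 to 1732220 in EtOH and 780595 to 1217450 in TAM libraries, and most of it came from Col1a1, Col1a2 and Col3a1. Dcn (log2 fold change −2.37) and Lum (−2.38) had the largest differences without overlap. Of the 12 markers, 6 were lower without overlap, while 2 were higher without overlap, Thy1 (1.36) and Fbln2 (0.70). Of all genes tested, 11.4% were lower and 9.19% higher without overlap.

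Of 10 keratinocyte markers 2 passed the filter, with list sums of 68.7 to 87.0 in EtOH and 62.9 to 83.8 in TAM libraries, and Krt14 reached at most 0.91. Krt10 made up most of these sums and overlapped between the groups (log2 fold change −0.02, adjusted p 0.982 in limma). Trp63 had 25.1, 25.8 and 24.9 in EtOH and 7.15, 2.50 and 6.87 in TAM libraries and was not called (log2 fold change −2.11, adjusted p 0.187). Krt5, below the filter, went the other way without overlap, with 0.64, 0 and 0 in EtOH and 2.96, 7.53 and 13.4 in TAM libraries. Of 8 endothelial markers 1 passed, Kdr, which was called lower with the block (log2 fold change −3.71, adjusted p 0.0488), while Pecam1 reached at most 11.3. Kdr had 205, 68.7 and 116 in EtOH and 4.84, 7.53 and 14.0 in TAM libraries, so it, like Trp63, passed the filter only through the group where it was high. The endothelial sum was 92.5 to 241 in EtOH and 24.6 to 45.2 in TAM libraries, and Kdr made up most of it in EtOH libraries. Vwf, below the filter, was higher without overlap, with 0.55, 6.65 and 4.34 in EtOH and 8.90, 8.36 and 10.1 in TAM libraries. Of 10 macrophage and leukocyte markers 4 passed, with sums of 203 to 528 and 369 to 549, and Ptprc reached at most 5.01. Lyz2 had 46.8, 35.3 and 62.9 in EtOH and 103, 143 and 159 in TAM libraries without overlap and was not called (log2 fold change 1.48, adjusted p 0.141), nor was Csf1r (0.82, adjusted p 0.388), also higher without overlap. Of the other tested markers of this list, Cd14 was higher (1.08) and Cd68 lower (−0.59), both with overlap. At 0 in all libraries were 3 of the 10. Of 6 adipocyte markers 2 passed (sums 32.4 to 389 and 128 to 178), of 6 melanocyte markers 3 (273 to 811 and 219 to 688), and of 6 pericyte and smooth muscle markers 4 (17291 to 55800 and 26045 to 102015). Pparg (adipocyte, log2 fold change 1.06, adjusted p 0.403) and Myh11 (smooth muscle, 2.26, adjusted p 0.156) were higher without overlap and not called. The other tested genes of these 2 lists overlapped between the groups. Fabp4 (adipocyte, −0.26) and Cspg4 (pericyte, −0.63) were lower, and Rgs5 (1.55) and Acta2 (0.56) higher. Acta2 made up most of the pericyte and smooth muscle sum. In bulk RNA, fewer cells of a type and less RNA per cell cannot be told apart, and the part of these markers in the FGF differences was not tested.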

How the data were processed

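The authors used TopHat to map reads to mm9, htseq-count to assign them to RefSeq genes, and edgeR with TMM normalization to test expression. Versions and the strand setting are not given in the sources used here. The deposited signal is 1 table of normalized counts for 22162 genes and 6 libraries, whose scaling is not stated and whose values are not whole numbers, so no count model was run. The number of reads, and so the counting error, is unknown, and the smallest values above 0 were 0.36 to 0.89 in the libraries.

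From the table, log2(value + 1) was fitted with limma 3.58.1 under R 4.3.3 (intensity trend, two-sided, Benjamini-Hochberg adjustment over all genes tested) for genes with at least 16.2 normalized counts in at least 3 of the 6 libraries. The added 1 makes fold changes of low genes smaller. Libraries were grouped by their labels. Across genes, deviations of same-numbered libraries correlated with r of 0.24, 0.29 and 0.42, and those of other pairs of libraries with r of −0.31 to 0.04. Deviations from a group mean sum to 0, so lower r values for the other pairs follow from the positive ones and are no separate evidence. The labels give replicate numbers and state no pairing. The number was taken as a pairing from these same data, and blocked values stand beside results they change. The model was tested on simulated data.

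The members and the gene lists were chosen with earlier results of these data known. From each list the text names every gene called with or without the block, or else up to 2 genes with the largest change whose groups do not overlap. Further cell type markers were named after their values were seen, to show how the rest of a list stood. The 3 genes most like the members with the largest rise and fall were also named. Ratios, motifs, fits without both replicate 2 libraries, and the fit without a filter but with the block were chosen after seeing the data. Exon lengths came from the mm9 annotation (GENCODE), and upstream sequences from RefSeq. Of the 10 members, 8 had a usable sequence window. Alternatives were other scalings, pseudocounts, filters, library weights, the block and leaving out each library. Python 3.11.15 with pandas 2.3.3, scipy 1.17.1 and matplotlib 3.10.9 made the tables, permutation tests and figures.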

Additional observations from a re-analysis of the deposited data

How the results depend on the processing

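With 3 libraries a group and unknown read totals, the precision is that of these libraries, and Fgf1, below the filter, was tested in the fits without a filter. Fgf21 (−2.76) was called with the replicate block (adjusted p 0.0345), with the same library sum (−2.65, 0.0444), quantile normalization (−2.86, 0.0493), library weights (−2.59, 0.00446), no filter with the block (−2.76, 0.0345) and the block without replicate 2 (−2.43, 0.0111). In each of these 6 settings it was the 1 FGF gene called lower. Fgf7 was called with library weights (1.10, 0.0433), no filter with the block (1.50, 0.0481) and the block without replicate 2 (1.25, 0.0123), Fgfr1 with library weights (0.68, 0.0412) and the block without replicate 2 (0.75, 0.0495), and Fgfrl1 with library weights (0.63, 0.0263). The genes called higher were thus 3 with library weights, 2 with the block without replicate 2 and 1 without a filter and with the block. Leaving out 1 library at a time gave −3.01 to −2.37 for Fgf21 (adjusted p 0.0711 to 0.196) and 1.36 to 1.73 for Fgf7 (0.110 to 0.355). Fgf18 reversed with quantile normalization (−0.043) and without EtOH replicate 3 (−0.03) or TAM replicate 1 (−0.30); leaving out 1 library gave −0.30 to 0.46. The sign of every other member stayed the same in all alternatives run, and with the filter and all libraries the replicate block changed no call of a member other than Fgf21.

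Of the pathway lists, 0 genes were called without the block, 3 higher with it, 5 higher and 3 lower with library weights, 3 higher with no filter and the block, and 9 higher and 3 lower with the block without replicate 2. Over all genes, limma called 20 higher and 9 lower, against 119 and 73 with the replicate block, 386 and 356 with library weights, 12 and 5 with no filter, 125 and 80 with no filter and the block, 5 and 5 without replicate 2, and 527 and 397 with the block without replicate 2. With at least 10 in every library 4 were lower. Leaving out 1 library gave 0 to 7 higher and 0 to 10 lower. With the longest transcript as the length, the mean level per kb moved to 1220 for Fgfr1, 116 for Fgfr2 and 5.79 for Fgfr3, and the mean of Fgf18 in TAM libraries (34.6) lay above that of Fgf21 (34.1), through TAM replicate 1 alone. The leave-one-out fits hold fewer libraries and also differ in which library is left out. Except for the lengths, the cause of these shifts was not tested.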

Other observations

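EtOH replicate 2 was the highest of the EtOH libraries for all 11 ERK-responsive genes. TAM replicate 2 was likewise the highest of the TAM libraries for each of them. Of the 10 feedback inhibitors, EtOH replicate 2 was the highest of the EtOH libraries for 7 and the lowest for 3. The genes given here were picked after their values were seen. Dusp4, a nuclear phosphatase of ERK, had 56.8, 538 and 27.3 normalized counts in EtOH replicates 1, 2 and 3 and 215, 1155 and 116 in TAM replicates 1, 2 and 3. It was higher in the TAM library of each pair (log2 fold change 1.68, adjusted p 0.604 in limma and 0.0581 with the block), while EtOH replicate 2 exceeded TAM replicates 1 and 3. Etv4, a transcription factor known to respond to FGF, had 39.6, 148 and 15.8 in EtOH and 74.1, 414 and 49.3 in TAM libraries. Fos had 110, 1342 and 22.0 in EtOH and 149, 241 and 112 in TAM libraries, with EtOH replicate 2 far above the other 5. Among the heparan sulfate enzymes, Hs3st3b1, a 3-O-sulfotransferase, had 14.6, 2.80 and 5.16 in EtOH and 55.6, 63.7 and 30.3 in TAM libraries (log2 fold change 2.76, adjusted p 0.157 in limma and 0.101 with the block). Its EtOH values all lay below the filter.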
